A study of Mus musculus with 96 samples.

Results

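Oligomycin, an inhibitor of the mitochondrial ATP synthase, was compared with its solvent DMSO in untransduced C2C12 myotubes. C2C12 is a mouse myoblast line, that is, cells of the muscle lineage that divide in rich medium and fuse into multinucleated myotubes once they are confluent and serum is withdrawn. The members were the 6 libraries that the labels name as untransduced myotubes with oligomycin or DMSO, 3 of each, out of 96 libraries in the series. These cells had spent 4 days in low-serum media and were then treated for 10 h with 1 µM oligomycin or DMSO, in a medium that lacked pyruvate and uridine. They had received no virus. Further libraries served to place the response: untransduced myotubes with 0.5 µM piericidin (an inhibitor of respiratory complex I) or 0.5 µM antimycin (an inhibitor of complex III), 3 libraries each, which share the DMSO libraries, myotubes transduced with an adenovirus carrying GFP and given DMSO or oligomycin, 2 libraries each, and myoblasts with an inducible luciferase gene, kept in doxycycline and given DMSO or oligomycin, 3 libraries each. The fits took their estimate of spread from more groups as well. With the untransduced myotubes these were BAM15 (a mitochondrial uncoupler), oligomycin with BAM15, oligomycin with piericidin, and DMSO or oligomycin under hypoxia, with the GFP myotubes they were GFP with piericidin and myotubes expressing LbNOX (a bacterial NADH oxidase) with DMSO, oligomycin or piericidin, and with the myoblasts they were the piericidin and antimycin libraries of both cell states. A C2C12 culture at this stage is a mixture of myotubes and cells that have not fused, so fewer cells of a kind and less RNA per cell cannot be told apart. The labels do not say whether replicates were separate cultures, and the p-values then measure the spread between these libraries, which may be technical.

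Oligomycin binds the membrane part of the ATP synthase and stops protons from flowing back through it, so that ATP is no longer made and the potential across the inner membrane rises, whereas piericidin and antimycin stop the flow of electrons that builds this potential. Cells under many kinds of stress phosphorylate the translation factor eIF2α. This lowers protein synthesis in general while it favours translation of the transcription factor ATF4, which with its partners raises the transcripts of amino acid enzymes, amino acid transporters, tRNA synthetases and its own feedback regulators. That program is known as the integrated stress response (ISR). In skeletal muscle, the same factors are known to raise GDF15 and FGF21, hormones that muscle secretes when its mitochondria fail.

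The 6 libraries held between 9810751 and 11940850 estimated counts, and levels are given below in CPM, the count of a gene scaled to a library of 1000000 counts after TMM normalisation. All 8 markers of differentiated muscle were present in all 6 libraries. Their summed level was 17690 to 18181 CPM with DMSO and 19281 to 19839 CPM with oligomycin, and that of 13 markers of undifferentiated or fibroblast-like cells was 8251 to 8551 CPM with DMSO and 8158 to 9076 CPM with oligomycin. In the test described next, 3 of the 8 rose and 3 fell, and 3 of the 13 rose and 3 fell. The libraries differed in a further way. Across the 21 untransduced myotube libraries of the other 7 conditions, 1 principal component of the deviations from the condition means held 35.1% of the variance of 6028 well-measured genes, and 623 genes followed it (correlation above 0.7, called component genes here). Their mean level was 4.88 to 4.94 log2 CPM in the DMSO libraries and 3.86, 4.16 and 4.58 log2 CPM in oligomycin libraries 1, 2 and 3. If the plate codes in the labels are read as wells of a plate, all 7 untransduced myotube libraries at its outer places, oligomycin replicates 1 and 2 among them, had a level of 3.86 to 4.24, and the 20 untransduced ones at inner places had a level of 4.33 to 5.08. The part of this component in the results was not tested other than by an added fit with it as a covariate. The covariate is the mean level of the component genes in the libraries fitted, so a component gene is part of its own covariate. For such a gene the fit also takes up a change due to oligomycin and cannot separate it from the component. That fit is given below for each named gene whose call it changed and for the lists whose counts it moved most.

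Oligomycin changed a large share of the measured transcripts in both directions. Of 12491 genes that reached 16 counts in all replicates of some condition, 2103 rose (16.8%) and 2021 fell (16.2%) at an adjusted p under 0.05 in edgeR, with a median log2 fold change over all genes of -0.0058. The change was at least 2-fold for 702 genes (5.62%), of which 332 rose and 370 fell. The 3 oligomycin libraries did not overlap with the 3 DMSO libraries at 5508 genes (44.1%). The component genes lay mostly on the falling side: 301 of the 623 fell and 13 rose, and they were 129 of the 370 genes that fell at least 2-fold but 3 of the 332 that rose. With the component as a covariate, 3088 genes were called, 1595 higher and 1493 lower, and 552 of them changed at least 2-fold, 322 up and 230 down. In the lists described below, 322 of 574 genes tested were called, and 19 were component genes. A further 21 list genes were under the count minimum, Cebpb (at most 9 counts in the 6 libraries) and Mstn (at most 1 count) among them.

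The transcription factors of the ISR rose together. Of 8 tested, 6 rose and none fell, with a list median of 1.40 (log2), against the 16.8% of all genes that rose. Atf4 (ENSMUSG00000042406), the central factor of the response, stood at 199, 202 and 205 CPM with DMSO and 652, 625 and 673 CPM with oligomycin, a 3.22-fold rise (log2 fold change 1.69, SE 0.046, edgeR adjusted p = 2.25e-24). Atf3, a stress-induced partner and target of ATF4, stood at 3.49, 4.17 and 3.30 CPM with DMSO and 185, 176 and 183 CPM with oligomycin, so that its lowest oligomycin library lay far above the highest DMSO library (log2 fold change 5.62, SE 0.16, edgeR adjusted p = 3.45e-24). Ddit3, which encodes CHOP, a factor that acts with ATF4 and is tied to cell death under lasting stress, stood at 20.1, 17.4 and 19.5 CPM with DMSO and 318, 318 and 314 CPM with oligomycin (log2 fold change 4.06, SE 0.082, edgeR adjusted p = 5.92e-28). These 3 genes were tight within each group. Nupr1, a small stress-induced chromatin protein, rose by 1.56 and Cebpg, a dimer partner of ATF4, by 1.25 on the log2 scale. Atf5 was less secure: it stood at 5.13, 6.80 and 4.34 CPM with DMSO and 6.69, 8.74 and 9.34 CPM with oligomycin, the groups overlapped, and its rise of 0.60 (edgeR adjusted p = 0.0259) was lost when DMSO library 1 or 3 or oligomycin library 2 or 3 was left out, the highest adjusted p being 0.133 (edgeR). Creb5 and Jdp2 did not pass, at 0.45 and -0.18.

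ATF4 and CHOP are known to bind, with C/EBP partners, a composite element whose core can be written TGATGNAA. This was searched on both strands from 250 bases before to 50 bases after the annotated starts (RefSeq, GRCm38.p6). The element occurred in the promoters of 28 of the 257 genes with a promoter in the table that rose at least 2-fold (10.9%), 74 of 1645 of all that rose (4.50%), 143 of 6030 that were not called (2.37%), 35 of 1549 that fell (2.26%) and 4 of 280 that fell at least 2-fold (1.43%). Over all 27025 genes with a promoter, tested or not, the share was 4.51%. In the 7 lists of ISR factors, feedback genes, mitokines, amino acid enzymes, transporters and cytosolic tRNA synthetases, 20 of 57 genes had it (35.1%), but among the serine and one-carbon enzymes, of which 9 rose, none of 10 promoters did. The letters TGATGCAA, which are part of the wider motif, were in 6.61% of the promoters of genes that rose at least 2-fold and in 0.547% of those not called. A match in this window is a description of sequence and does not show binding. The stretches below show the element, in capitals on either strand, with the bases around it, for 7 genes of the lists and for Avil, a gene outside the lists with a large rise. All are given 5′ to 3′ in the direction of transcription.
Atf3, chr1:191183421-191183458, minus strand, 110 bases before the start: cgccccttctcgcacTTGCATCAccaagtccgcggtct
Nupr1, chr7:126625558-126625595, minus strand, 110 bases before the start: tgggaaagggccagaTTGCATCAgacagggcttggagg
Chac1, chr2:119351034-119351071, plus strand, 193 bases before the start: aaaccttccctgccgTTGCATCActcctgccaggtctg
Herpud1, chr8:94386302-94386339, plus strand, 112 bases before the start: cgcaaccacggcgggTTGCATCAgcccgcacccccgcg
Fgf21, chr7:45615607-45615644, minus strand, 139 bases before the start: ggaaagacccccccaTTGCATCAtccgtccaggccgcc
Slc7a11, chr3:50443638-50443694, minus strand, with 2 elements, 66 and 47 bases before the start: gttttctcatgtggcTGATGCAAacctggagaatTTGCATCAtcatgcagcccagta
Pck2, chr14:55540148-55540185, plus strand, 103 bases before the start: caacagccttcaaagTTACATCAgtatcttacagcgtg
Avil, chr10:127000677-127000708, plus strand, 17 bases before the start: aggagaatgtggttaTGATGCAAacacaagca
In Slc7a11 the elements lie on opposite strands.

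Genes that feed back on the ISR or slow growth rose as well, 9 of 10 tested, with a median of 1.68 and groups that did not overlap at 10 of 10, Ddit4 included, which did not pass, against 44.1% of all genes. Trib3, a pseudokinase that restrains ATF4 and the kinase AKT, stood at 9.24, 11 and 12.6 CPM with DMSO and 278, 280.2 and 275 CPM with oligomycin (log2 fold change 4.66, SE 0.092, edgeR adjusted p = 4.89e-28). Ppp1r15a encodes GADD34, which guides a phosphatase back to eIF2α, and stood at 29.6, 26.7 and 26.5 CPM with DMSO and 264, 259 and 255 CPM with oligomycin (log2 fold change 3.23, SE 0.076, edgeR adjusted p = 4.24e-26). Sesn2, an inhibitor of mTORC1, rose by 2.34, Chac1, which degrades glutathione, by 2.21, and Eif4ebp1, a repressor of cap-dependent translation, by 1.30 on the log2 scale. The exception was Ddit4 (REDD1), another brake on mTORC1, which stood at 5.65, 5.71 and 6.32 CPM with DMSO and 3.63, 4.37 and 4.86 CPM with oligomycin and did not pass (log2 fold change -0.46, SE 0.24, edgeR adjusted p = 0.145). Both mitokines rose. Gdf15 stood at 1.85, 1.63 and 2.17 CPM with DMSO and 44.6, 44.2 and 45.9 CPM with oligomycin, a 23.7-fold rise (log2 fold change 4.57, SE 0.20, edgeR adjusted p = 8.97e-19), and Fgf21 at 29.5, 30.4 and 26.1 CPM with DMSO and 173, 172 and 179 CPM with oligomycin, a 6.09-fold rise (log2 fold change 2.61, SE 0.084, edgeR adjusted p = 2.02e-22).

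The enzymes that make non-essential amino acids and their one-carbon products rose as a group. Of 12 serine and one-carbon genes, 9 rose and none fell, with a median of 0.82. The mitochondrial arm of the folate cycle had the largest values: Aldh1l2 stood at 26.7, 28.4 and 31.3 CPM with DMSO and 106, 102 and 109 CPM with oligomycin (log2 fold change 1.88, SE 0.082), and Mthfd2 at 98.9, 86.5 and 86.6 CPM with DMSO and 275, 267 and 271 CPM with oligomycin (log2 fold change 1.58, SE 0.066). Of the serine pathway itself, Phgdh, its first enzyme, rose by 0.93, Psat1 by 0.72 and Psph by 1.55. The cytosolic Shmt1 passed at 0.64 (edgeR adjusted p = 0.0197), but with the component as a covariate it stood at 0.39 and did not pass (edgeR adjusted p = 0.332), nor did it without DMSO library 3 (edgeR adjusted p = 0.0682) or oligomycin library 2 (edgeR adjusted p = 0.119). Its mitochondrial counterpart Shmt2 rose by 1.31. Of 10 genes for asparagine, proline, cysteine and alanine synthesis, 7 rose and none fell. Asns, asparagine synthetase, stood at 106, 101 and 103 CPM with DMSO and 316, 298 and 312 CPM with oligomycin, a 2.99-fold rise (log2 SE 0.056). The steepest of the list was Cth, cystathionine gamma-lyase, which makes cysteine, at 1.95, 2.45 and 0.850 CPM with DMSO and 28.1, 26.0 and 26.0 CPM with oligomycin (log2 fold change 3.92, SE 0.23, edgeR adjusted p = 2.38e-15). Pck2, the mitochondrial PEP carboxykinase, rose by 1.64, and the proline enzymes Aldh18a1 and Pycr1 by 1.58 and 1.50.

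Amino acid transporters followed, with 10 of 13 higher and 1 lower. Slc3a2, the heavy chain that several transporters share, stood at 156, 158 and 157 CPM with DMSO and 564, 557 and 559 CPM with oligomycin (log2 fold change 1.83, SE 0.049, edgeR adjusted p = 1.73e-24). The arginine carrier Slc7a1 rose by 1.75. The light chains Slc7a5, a carrier of large neutral amino acids, and Slc7a11, the cystine-glutamate exchanger, which pair with Slc3a2, rose by 1.64 and 1.64. Slc6a9, a glycine carrier, rose most, from 15.5, 19.4 and 18.1 CPM to 90.6, 92.0 and 98.4 CPM, a log2 change of 2.40 (SE 0.11). The member that fell, Slc36a4, stood at 15.6, 17.8 and 16.1 CPM with DMSO and 6.14, 9.94 and 7.72 CPM with oligomycin (log2 fold change -1.05, SE 0.27, edgeR adjusted p = 0.00445), and with the component as a covariate its value of -0.61 did not pass (edgeR adjusted p = 0.11). Cytosolic tRNA synthetases, which load amino acids onto tRNA, rose at 16 of 20 genes and fell at none, with a median of 0.92. Wars, for tryptophan, led with 81.5, 83.2 and 84.5 CPM with DMSO and 261, 261 and 253 CPM with oligomycin (3.11-fold), and Gars, for glycine, and Eprs, for glutamate and proline, rose by 1.24 and 1.21. Vars, for valine, is a component gene and its 3 oligomycin libraries were far apart, at 54.6, 72.0 and 155 CPM against 101, 110.0 and 103 CPM with DMSO. Its value was -0.16 (edgeR adjusted p = 0.816) in the main fit and 1.00 (edgeR adjusted p = 1.34e-08) with the component as a covariate.

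**Figure D1:**
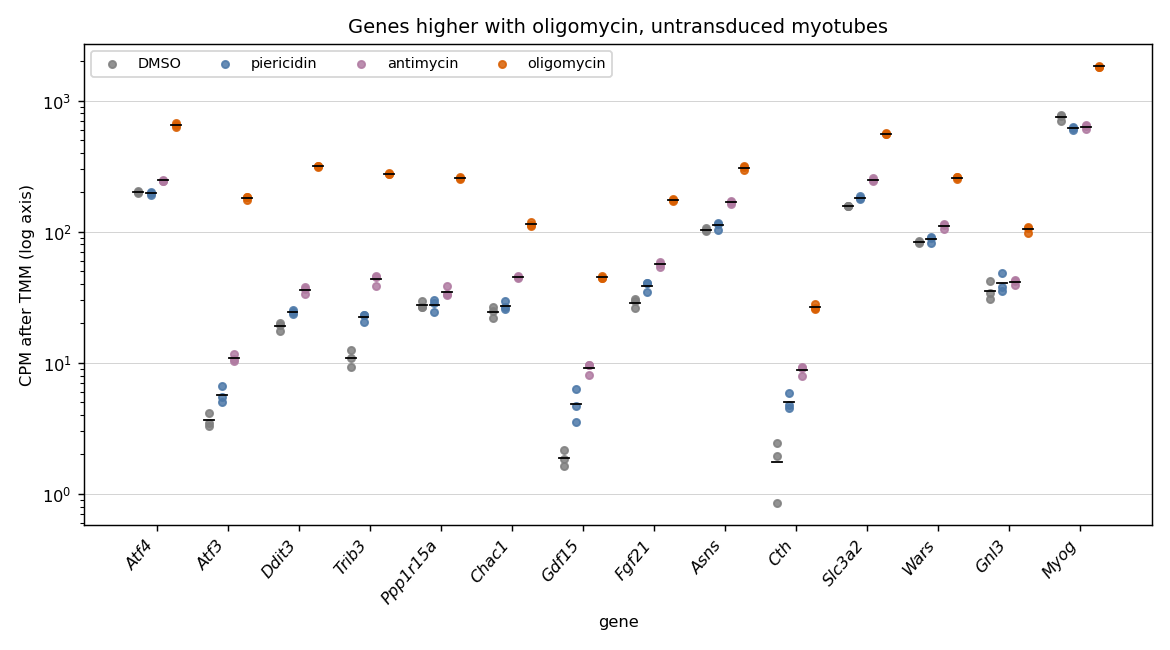
Level (CPM, log axis) of 14 genes that were higher with oligomycin, in each of 3 libraries of DMSO, piericidin, antimycin and oligomycin (points) with the group mean (black bar). The oligomycin libraries stand above all others for every gene plotted, and for Myog the piericidin and antimycin means lie below the DMSO mean.

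Genes of ribosome assembly were the other group that rose nearly throughout, 16 of 18 tested, with none lower and a median of 0.77. Gnl3 (nucleostemin), a nucleolar GTPase, stood at 42.0, 30.7 and 33.9 CPM with DMSO and 106, 97.9 and 109 CPM with oligomycin (log2 fold change 1.55, SE 0.11, edgeR adjusted p = 5.34e-13), and Nop58, a core protein of the particles that modify ribosomal RNA, at 63.7, 56.4 and 60.7 CPM with DMSO and 139.5, 146 and 144 CPM with oligomycin (log2 fold change 1.25, SE 0.059). Ncl (nucleolin) rose by 0.70 and Nop2, a methyltransferase of ribosomal RNA, by 1.00. Myc, a factor known to drive ribosome production, stood at 25.6, 22.3 and 21.9 CPM with DMSO and 79.7, 77.8 and 75.3 CPM with oligomycin (log2 fold change 1.74, SE 0.092, edgeR adjusted p = 1.23e-16). It was counted among 18 immediate early genes, of which 5 rose and 8 fell. Klf4 (1.43) and Btg2 (0.81) also rose, while Egr3 (-1.64), Fosl1 (-1.22), Egr2 (-0.92) and Egr1 (-0.85), which follow growth factor and contraction signals, fell.

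Within the mitochondrion, genes of protein quality control were higher where they were called. Of 16 mitochondrial chaperones and proteases, 8 rose and none fell. Hspa9 (mortalin), the matrix HSP70 that draws proteins in, stood at 392, 392 and 384 CPM with DMSO and 950.2, 936 and 913 CPM with oligomycin (log2 fold change 1.26, SE 0.04, edgeR adjusted p = 1.55e-22), its partner Dnaja3 rose by 1.32, the protease Lonp1 by 1.01 and the chaperonin Hspd1 by 0.64. The proteases Oma1 and Yme1l1, which cleave the fusion protein OPA1, did not pass, at 0.10 and -0.047. Of 14 regulators of mitochondrial DNA and biogenesis, 6 rose, among them the helicase Twnk (0.97), the polymerase cofactor Tfb2m (0.64) and the packaging factor Tfam (0.63). Ppargc1a (PGC-1α), a coactivator that drives mitochondrial biogenesis, was low, at 3.08, 3.53 and 2.17 CPM with DMSO and 1.86, 1.71 and 1.05 CPM with oligomycin, and fell by 0.92 on the log2 scale (SE 0.32, edgeR adjusted p = 0.0256), a call lost without DMSO library 1 or 2 or oligomycin library 3, where the adjusted p was 0.0628, 0.117 and 0.121 (edgeR). With the component as a covariate, 4 of the 14 rose and 1 fell.

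Subunits of the oxidative phosphorylation complexes changed little. The ATP synthase itself, the target of the drug, had 9 of 18 genes lower and none higher, with a median of -0.21 and 6 lower with the component as a covariate. The largest was Atp5k, which encodes subunit e of the membrane part, at 18.6, 19.7 and 21.4 CPM with DMSO and 14.0, 10.7 and 11.1 CPM with oligomycin (log2 fold change -0.74, SE 0.15, edgeR adjusted p = 0.000216), whereas the catalytic subunit Atp5b was at 0.028 and the inhibitor Atpif1 at -0.22, and neither passed. Of 37 nuclear complex I genes 8 fell and 1 rose, 24.3% of the list. Over all genes 33.0% were called, 16.2% lower and 16.8% higher. With the component as a covariate 3 of the 37 fell and none rose, at a median of -0.12 against -0.11 without it. Of 23 complex III and IV genes, 8 fell, led by Uqcrh (-0.67), and 1 rose, Cox6a2 (0.70), the muscle form of a complex IV subunit. With the covariate 5 of the 23 fell and 1 rose, at a median of -0.19 against -0.17. Of the 13 proteins encoded by mitochondrial DNA, 9 fell and 2 rose. The falls were small, the largest being mt-Atp6 at -0.49 (SE 0.12), which did not pass with the component as a covariate (-0.35, edgeR adjusted p = 0.0792). With the covariate 6 of the 13 fell and none rose, while the list median was -0.25 with it and -0.22 without. With the libraries at inner places alone, 4 ATP synthase genes fell and 1 rose, no complex I gene fell and 1 rose, 1 complex III or IV gene fell and 1 rose, and 7 mitochondrially encoded genes fell. Over all genes 16.8% rose and 16.2% fell. The mitochondrial tRNA synthetases were mixed, 5 of 17 higher, led by Tars2 (0.70), and 3 lower, with a median of 0.064. These 3, Cars2, Iars2 and Lars2, are all component genes, and of them Cars2 alone passed with the component as a covariate, at -0.62 (edgeR adjusted p = 0.0121), against -0.22 for Iars2 and -0.21 for Lars2. At inner places alone 4 of the 17 rose and 1 fell. Iars2 also lost its call without DMSO library 2 (edgeR adjusted p = 0.0608).

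The chaperones of the endoplasmic reticulum (ER), which rise when unfolded protein gathers there, were not higher as a group: 11 of 17 fell and 1 rose, with a median of -0.33. Hspa5 (BiP), the defining chaperone of that response, stood at 807, 806 and 777 CPM with DMSO and 844, 771 and 791 CPM with oligomycin and did not pass (log2 fold change 0.0095, SE 0.038, edgeR adjusted p = 0.875). Xbp1, a transcription factor of that response, stood at -0.26 and did not pass. Sdf2l1 (-0.93), Manf (-0.69) and Creld2 (-0.50), secretory pathway proteins that follow BiP, fell, and Sel1l (0.49), of the ER degradation complex, rose. The largest fall of the list, Dnajb11 at -1.57, was a component gene with libraries far apart (24.9, 37.3 and 78.7 CPM against 137, 147 and 134 CPM with DMSO), and it stood at -0.34 with the component as a covariate (edgeR adjusted p = 0.00223). Without oligomycin library 1 or 2 its adjusted p was 0.0768 and 0.0623 (edgeR).

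**Figure D2:**
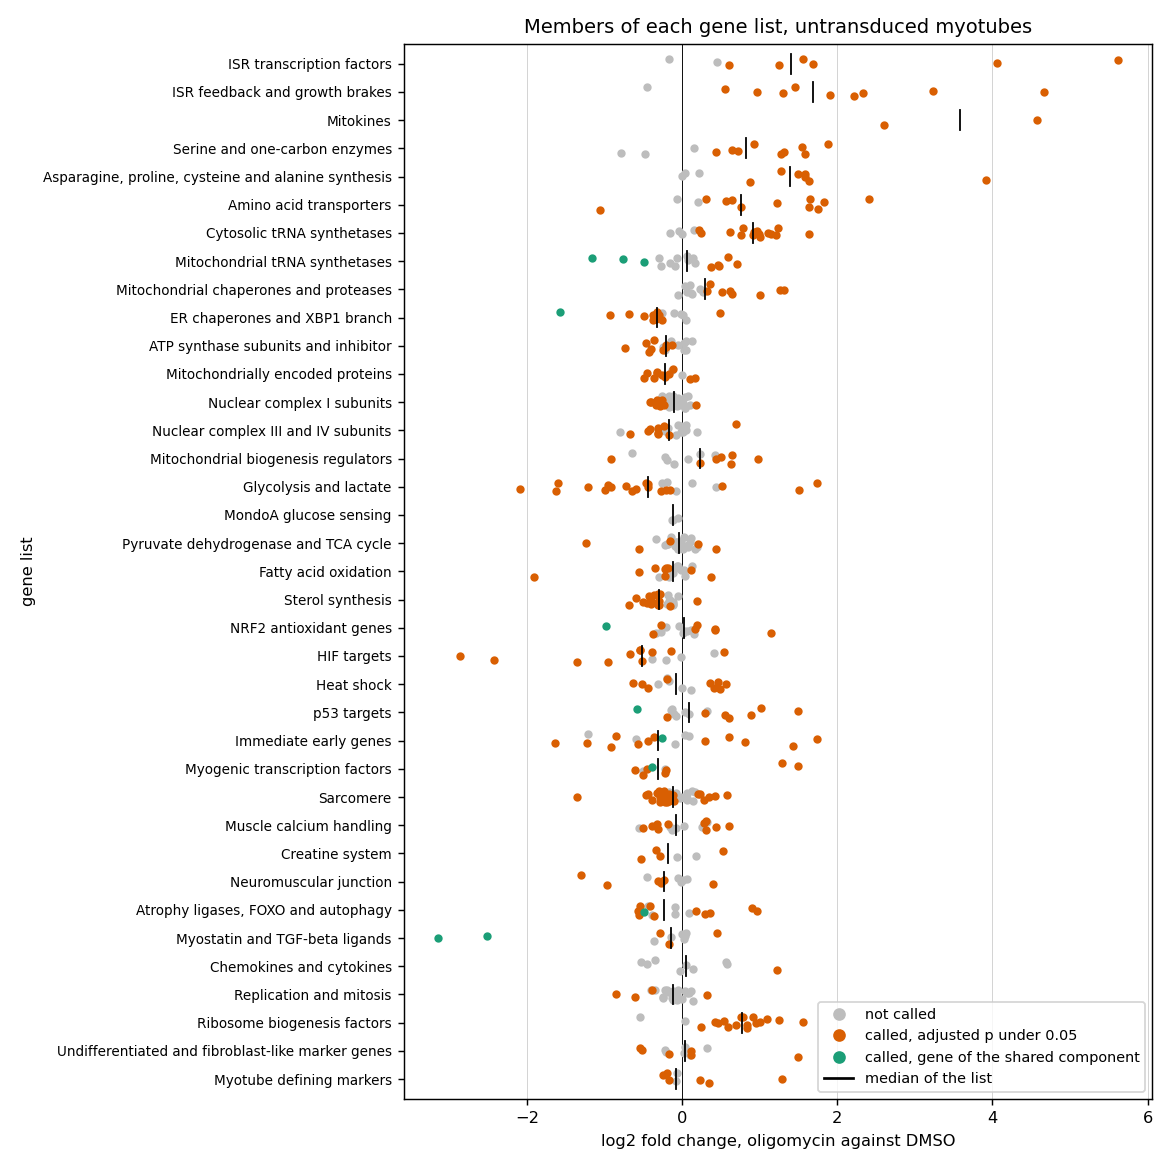
Log2 fold change of every tested member of 37 gene lists, oligomycin against DMSO (points), with the median of each list (black bar). Orange points passed an adjusted p of 0.05 in edgeR, green points passed and belong to the shared component, and grey points did not pass. The medians of the ISR, amino acid, cytosolic tRNA synthetase and ribosome lists lie to the right of 0 and those of the glycolysis, HIF and sterol lists to the left, with single members on the other side in some of them.

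Glycolysis genes and the targets of the hypoxia-inducible factor (HIF), which overlap in function, were lower. Of 24 genes of glycolysis and lactate handling 16 fell and 3 rose, with a median of -0.44. Slc16a3 (MCT4), the carrier that exports lactate, stood at 38.7, 41.1 and 53 CPM with DMSO and 11.7, 9.94 and 9.44 CPM with oligomycin (log2 fold change -2.09, SE 0.11, edgeR adjusted p = 2.15e-16), and Pfkl, a phosphofructokinase, at 130.1, 134 and 170.0 CPM with DMSO and 51.3, 48.0 and 43.4 CPM with oligomycin (log2 fold change -1.60, SE 0.075, edgeR adjusted p = 3.38e-16). Ldha, which turns pyruvate into lactate, stood at 1098, 1174 and 1266 CPM with DMSO and 599, 603 and 575 CPM with oligomycin, a fall to 0.502 of the DMSO level (log2 SE 0.04). The groups stood clear of each other for all 3. Pfkfb3, which makes the activator of phosphofructokinase, Pgam1 and the muscle form Pgam2 fell by 1.62, 1.21 and 0.92. The genes that rose act in glucose entry: Hk2, the hexokinase of muscle, stood at 49.6, 48.9 and 58.2 CPM with DMSO and 181, 165 and 176 CPM with oligomycin (log2 fold change 1.73, SE 0.088, edgeR adjusted p = 7.14e-15), and the insulin-responsive carrier Slc2a4 (GLUT4) and the basal carrier Slc2a1 (GLUT1) rose by 1.50 and 0.51. Of the 3 genes tested of the glucose sensor MondoA, neither its target Txnip (-0.12, SE 0.13) nor the factors Mlxip (-0.13, SE 0.20) and Mlx (-0.057, SE 0.098) passed in edgeR or DESeq2, the lowest edgeR adjusted p being 0.523.

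Of 15 HIF targets 10 fell and 1 rose, Ero1l (0.54), with a median of -0.52. Adm (adrenomedullin) stood at 4.82, 6.25 and 7.74 CPM with DMSO and 1.67, 0.343 and 0.572 CPM with oligomycin (log2 fold change -2.87, SE 0.30, edgeR adjusted p = 5.04e-09), and Ankrd37 at 7.29, 9.33 and 11.4 CPM with DMSO and 1.21, 2.14 and 1.81 CPM with oligomycin (log2 fold change -2.43, SE 0.23, edgeR adjusted p = 2.59e-10). Both are low genes whose groups did not overlap. Bnip3, a receptor for the removal of mitochondria, stood at 151, 182 and 218 CPM with DMSO and 73.4, 76.8 and 64.1 CPM with oligomycin (log2 fold change -1.36, SE 0.10, edgeR adjusted p = 2.61e-09), Higd1a fell by 0.95 and Egln3, an oxygen-sensing hydroxylase, by 0.52. Pdk1, the kinase that shuts pyruvate dehydrogenase and is also a known HIF target, stood at 73.7, 81.7 and 97.5 CPM with DMSO and 31.4, 34.4 and 41.6 CPM with oligomycin (log2 fold change -1.24, SE 0.082, edgeR adjusted p = 7.2e-13). It was the largest change among 29 genes of pyruvate dehydrogenase and the TCA cycle, of which 3 fell and 2 rose, and 5 fell and 1 rose with the component as a covariate. Of this list 17.2% were called, against 33.0% of all genes tested (16.8% higher and 16.2% lower). Car9 and Vegfa, widely used HIF targets, did not pass, at -0.20 and 0.42.

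Sterol synthesis genes were lower in small steps, 14 of 23 with 1 higher and a median of -0.30. Insig1 (-0.60), which holds back the sterol-sensing factors in the ER, and Idi1 (-0.50), an isomerase of the pathway, were among them. With the component as a covariate 15 fell and none rose. The shares called in the lists that follow are to be read against the 16.8% of all genes that rose and the 16.2% that fell, which several are near or below. Of 19 fatty acid oxidation genes 7 fell and 2 rose, and 8 fell and 1 rose with the covariate. Ucp3, an inner membrane carrier of muscle, was low, at 1.74, 2.08 and 1.70 CPM with DMSO and 0.372, 0.685 and 0.381 CPM with oligomycin, and its groups did not overlap (log2 fold change -1.90, SE 0.36, edgeR adjusted p = 0.000102). Of 17 NRF2 targets 5 rose, led by Hmox1, heme oxygenase, at 31.4, 35 and 31.2 CPM with DMSO and 74.7, 72.6 and 69.5 CPM with oligomycin (log2 fold change 1.15, SE 0.085), and 3 fell. Nqo1 (0.12) and Srxn1 (0.057), defining members of that list, did not pass, and with the covariate 4 of the list rose and 2 fell. Of 15 p53 targets 6 rose, among them Plk2 (1.49) and Eda2r (1.01), and 2 fell, against 6 and 1 with the covariate. Of 14 heat shock genes 5 rose, among them Hsf1 (0.57), and 4 fell, among them Hspa8 (-0.64). Of 23 genes of replication and mitosis Rrm2 (-0.60), Ccne2 (-0.85) and Mcm5 (-0.39) fell and Mcm7 (0.32) rose, and 2 of the 4 were called without DMSO library 1 or without oligomycin library 1. With the component as a covariate Rrm2 and Mcm5 fell, while Ccne2 (-0.81, edgeR adjusted p = 0.0573) and Mcm7 (0.31, edgeR adjusted p = 0.0586) did not pass. Of the 4 genes Rrm2 alone was called in every fit without 1 library, the highest adjusted p being 0.0795 for Ccne2, 0.207 for Mcm5 and 0.115 for Mcm7 (edgeR). Of 9 chemokines and cytokines, Ccl7 passed (1.22, edgeR adjusted p = 0.0103), and neither with the component as a covariate (edgeR adjusted p = 0.0832) nor without DMSO library 1 (edgeR adjusted p = 0.0657) did it pass. Without oligomycin library 3, 2 of the 9 were called.

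Among muscle genes, 2 transcription factors of muscle formation rose. Myog, the transcription factor that commits myoblasts to fuse, stood at 778, 758 and 699 CPM with DMSO and 1815, 1845 and 1819 CPM with oligomycin (log2 fold change 1.29, SE 0.039, edgeR adjusted p = 3.43e-23), and Myf5, a factor of muscle precursors, at 9.55, 8.88 and 8.12 CPM with DMSO and 26.7, 26.1 and 21.6 CPM with oligomycin (log2 fold change 1.49, SE 0.13, edgeR adjusted p = 5.68e-11). The other 6 called members of the 10 myogenic factors fell, among them Mef2d (-0.61), Six4 (-0.50), Mef2a (-0.38, a component gene), Myod1 (-0.23) and Mef2c (-0.21). With the component as a covariate 4 of these 6 fell, while Six4 (-0.37) and Mef2a (-0.18) did not pass. Six4 also lost its call without DMSO library 3 (edgeR adjusted p = 0.0705). Structural genes shifted little. Of 36 sarcomere genes 17 fell and 6 rose, with a median of -0.12, and at inner places alone 12 fell and 3 rose. Tcap (telethonin), which caps titin, was the exception in size, at 69.2, 70.3 and 83.4 CPM with DMSO and 29.5, 28.1 and 29.6 CPM with oligomycin (log2 fold change -1.36, SE 0.084, edgeR adjusted p = 9.23e-15). Ldb3 (-0.47) and Tnnt2 (-0.38) fell, while Myom2 (0.58), Myh7 (0.42) and Acta1 (0.35) rose. Of 17 calcium handling genes 5 rose, such as Jph1 (0.61), and 5 fell, such as Casq1 (-0.39). At the neuromuscular junction Colq, the collagen tail of acetylcholinesterase, and the enzyme Ache itself fell, by 1.31 and 0.97, in a list with 5 of 11 lower and 1 higher. In the creatine system Ckb (-0.53) fell and the carrier Slc6a8 (0.53) rose, with 3 of 6 lower and 1 higher.

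Fst (follistatin), a secreted protein that binds myostatin and activins, had the largest fall of any list member, at 85.8, 98.8 and 96.1 CPM with DMSO and 10.0, 12.2 and 9.44 CPM with oligomycin (log2 fold change -3.14, SE 0.18, edgeR adjusted p = 1.82e-11). It followed the shared component in other libraries, but its 3 oligomycin libraries were close together, and it stood at -2.79 with the component as a covariate and at -2.66 in GFP-transduced myotubes, where it was also called. Igfbp3, in the same list of 11 TGF-beta and myostatin family genes, differed: its value of -2.51 became -0.93 with the covariate and did not pass (edgeR adjusted p = 0.0812). Inhba (-0.29) and Tgfb3 (-0.18) also fell and Igfbp5 (0.45) rose. Inhba lost its call without DMSO library 3 (edgeR adjusted p = 0.0672) and with the covariate (edgeR adjusted p = 0.0721). Of 16 genes of atrophy and autophagy 5 rose and 6 fell, and with the component as a covariate 3 rose and 5 fell. Sqstm1 (p62), the cargo receptor of autophagy, stood at 772, 769 and 761 CPM with DMSO and 1519, 1478 and 1515 CPM with oligomycin (log2 fold change 0.97, SE 0.029, edgeR adjusted p = 2.19e-23) and the lysosomal protease Ctsl rose by 0.90. Of the ubiquitin ligases of muscle wasting, Trim63 (MuRF1) rose by 0.37 (edgeR adjusted p = 0.0131), a call lost without DMSO library 1 (edgeR adjusted p = 0.0655) or oligomycin library 2 (edgeR adjusted p = 0.0503) and with the component as a covariate (edgeR adjusted p = 0.0817). The other ligase, Fbxo32 (atrogin-1), fell by 0.41. Ulk1 (-0.57) and Wipi1 (-0.56), which start the autophagosome, fell.

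Outside the lists, the 15 genes with the largest rise held none of the component. Car6, a secreted carbonic anhydrase, stood at 0.205, 0 and 0.283 CPM with DMSO and 22.5, 19.0 and 21.1 CPM with oligomycin (log2 fold change 6.93, SE 0.43, edgeR adjusted p = 8.94e-15), and Avil (advillin), an actin-binding protein, at 0.308, 0.0906 and 0.189 CPM with DMSO and 10.3, 10.0 and 10.1 CPM with oligomycin (log2 fold change 5.64, SE 0.54, edgeR adjusted p = 3.05e-10). Both were close to absent with DMSO, so their folds rest on few counts. Cdsn (corneodesmosin), an adhesion protein of skin, stood at 2.05, 3.44 and 2.93 CPM with DMSO and 85.4, 94.7 and 94.3 CPM with oligomycin (log2 fold change 5.01, SE 0.16, edgeR adjusted p = 2.34e-22). Acot2, a mitochondrial acyl-CoA thioesterase, rose from 20.4, 21.6 and 21.0 CPM to 162, 181 and 177 CPM (log2 fold change 3.04, SE 0.078), and Ptgs2 (COX-2), the inducible prostaglandin synthase, from 9.75, 8.61 and 9.72 CPM to 97.9, 77.4 and 82.6 CPM (log2 fold change 3.20, SE 0.12). The others were Akr1b7 (4.60), Rad54b (3.99), a DNA repair helicase, B3gnt5 (3.86), Acox2 (3.59), Sh3tc2 (3.56), Atp2a3 (3.18), Extl1 (3.0), Serpinb9g (2.79), Gtpbp2 (2.73) and Angptl6 (2.54). Serpinb9g and Akr1b7 have close relatives in the genome that could share reads with them, so their levels are uncertain.

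Of the 15 genes outside the lists with the largest fall, 5 were component genes: Hes1, Dnaaf5, Rnf187, Rrad and Timm29. Rnf187, a ubiquitin ligase, stood at 206, 226 and 189 CPM with DMSO and 18.1, 27.5 and 56.9 CPM with oligomycin and changed by -2.61 (edgeR adjusted p = 0.0187), but by -0.43 with the component as a covariate (edgeR adjusted p = 0.31). Hes1 (-1.59) and Rrad (-1.46) still passed with the covariate, while Dnaaf5 (-0.39) and Timm29 (-0.89) did not. In GFP-transduced myotubes none of the 5 was called, with Hes1 at -0.66 and Rrad at -1.45. Rnf187 lost its call without oligomycin library 1 (edgeR adjusted p = 0.0787) or 2 (edgeR adjusted p = 0.0673), and Dnaaf5 without DMSO library 2 or any oligomycin library (highest edgeR adjusted p = 0.0868). The other 10 lie outside the component. Scml4, a Polycomb-related protein, stood at 54.0, 52.7 and 57.5 CPM with DMSO and 3.63, 3.0 and 3.53 CPM with oligomycin (log2 fold change -4.01, SE 0.15, edgeR adjusted p = 6.06e-21), and Art1, an ADP-ribosyltransferase of the muscle surface, at 93.3, 88.2 and 94.4 CPM with DMSO and 17.2, 18.4 and 18.7 CPM with oligomycin (log2 fold change -2.34, SE 0.078, edgeR adjusted p = 4.21e-22). Gja5 (connexin 40) stood at 84.7, 79.1 and 84.4 CPM with DMSO and 13.6, 14.4 and 13.8 CPM with oligomycin, and Asb2, a ubiquitin ligase subunit that acts on filamins in muscle, at 15.1, 15.1 and 15.5 CPM with DMSO and 3.25, 2.48 and 2.00 CPM with oligomycin (log2 fold changes -2.57 and -2.56). For these 4 genes the highest oligomycin library lay well under the lowest DMSO library, though groups that do not overlap were a condition for naming them. Smim5 (-3.80), Lrrc26 (-3.14), Ak4 (-3.03), a mitochondrial adenylate kinase, Lrrn1 (-2.38), Btbd17 (-2.35) and E2f2 (-2.32) made up the rest.

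**Figure D3:**
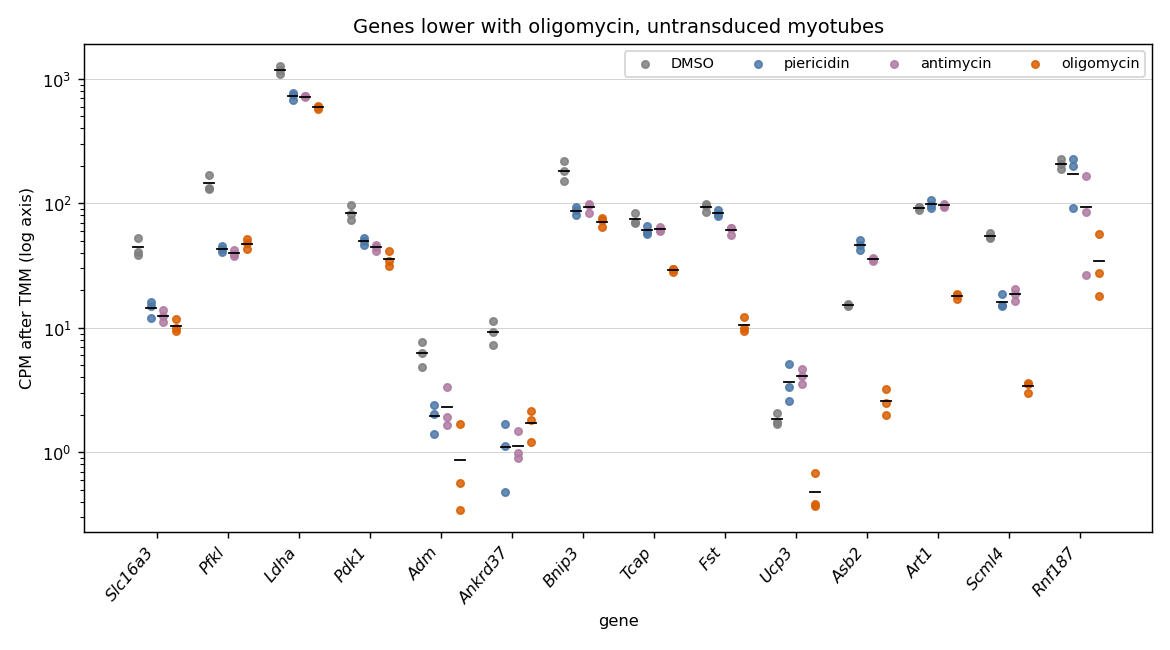
Level (CPM, log axis) of 14 genes that were lower with oligomycin, in each of 3 libraries of DMSO, piericidin, antimycin and oligomycin (points) with the group mean (black bar). Slc16a3, Pfkl, Ldha, Pdk1, Adm, Ankrd37, Bnip3, Tcap and Scml4 were lower with all 3 inhibitors, Art1 with oligomycin and with neither of the others, and Ucp3 and Asb2 stood above DMSO with piericidin and antimycin and below it with oligomycin. Rnf187, a gene of the shared component, was spread over the libraries of each inhibitor.

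The design asks how far this response belongs to ATP synthase inhibition rather than to a stop of respiration. Against the same DMSO libraries, piericidin raised 501 genes (4.01%) and lowered 603 (4.83%), and antimycin raised 819 (6.56%) and lowered 785 (6.28%). The doses differ, so the values stand side by side. Tested directly, 1803 genes were higher with oligomycin than with piericidin (14.4%) and 1651 lower (13.2%), and 1454 were higher than with antimycin (11.6%) and 1199 lower (9.6%). The mean level of the component genes was 4.74 to 4.95 log2 CPM with piericidin and 4.24 to 4.87 with antimycin, and its part in these counts was not tested other than by the covariate, with which 2518 and 2566 genes differed from piericidin and antimycin.

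The ISR genes stood apart between the inhibitors. Over the 7 ISR and amino acid lists together, 75 genes were tested, and 59 rose and 1 fell with oligomycin, 13 rose and 5 fell with piericidin, and 45 rose and 2 fell with antimycin, with medians of 1.00, 0.073 and 0.36. In the direct contrasts 60 of the 75 were higher with oligomycin than with piericidin and 1 was lower, and 55 were higher than with antimycin and none lower. Ddit3 had a log2 fold change of 4.06 with oligomycin, 0.36 with piericidin and 0.93 with antimycin, and the direct differences were 3.70 (SE 0.081) and 3.13 (SE 0.076). For Gdf15 the values were 4.57, 1.40 and 2.26. Atf5 and Tnfrsf10b, a death receptor, passed in neither direct contrast, with differences from antimycin of 0.033 (SE 0.20) and 0.082 (SE 0.10). Ribosome assembly genes differed too: 16 of 18 were higher with oligomycin than with either drug, and against DMSO piericidin lowered 1 and antimycin changed none (edgeR adjusted p under 0.05).

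Glycolysis genes and HIF targets fell in similar numbers with each of the 3 drugs, which share their DMSO libraries, though not to the same level. Of 24 glycolysis genes, 16 fell with each, and of 15 HIF targets 10 fell with oligomycin, 11 with piericidin and 10 with antimycin. In the direct contrasts, oligomycin gave 8 lower and 3 higher glycolysis genes than piericidin and 7 lower and 4 higher than antimycin. Of the HIF targets 3 were lower and 6 higher than with piericidin, and 2 lower and 6 higher than with antimycin. For Pgam1 the values were -1.21, -1.13 and -1.28, and its differences of -0.079 (SE 0.048) and 0.068 (SE 0.048) did not pass. Ankrd37 did not pass either, at -2.43, -2.96 and -3.02, with differences of 0.53 (SE 0.33) and 0.59 (SE 0.31). Pgam2, the muscle form, went with oligomycin alone, at -0.92 against -0.032 and 0.035, and both direct differences passed. Ldha fell further with oligomycin (-0.99) than with piericidin (-0.69) or antimycin (-0.71), and both direct differences passed. Hk2 rose with all 3 and more with oligomycin (1.73, 0.65 and 0.76), whereas the 3 values of Slc2a4 (1.50, 1.35 and 1.41) did not pass in the direct tests, with differences of 0.16 (SE 0.20) and 0.096 (SE 0.20). Slc2a1 rose with oligomycin (0.51) and fell with piericidin (-0.60) and antimycin (-0.45). Sterol genes fell at 14, 12 and 14 of 23. The direct contrasts found 3 lower and 1 higher against piericidin and 1 lower and 3 higher against antimycin. Over all genes, 13.2% were lower and 14.4% higher with oligomycin than with piericidin, and 9.6% lower and 11.6% higher than with antimycin. The sterol counts in the direct contrasts are near or below these shares.

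Some muscle genes went opposite ways. Myog rose with oligomycin but fell with piericidin (-0.27, edgeR adjusted p = 5.48e-06) and antimycin (-0.23, edgeR adjusted p = 5.74e-05). Its levels were 618, 599 and 632 CPM with piericidin and 646, 657 and 604 CPM with antimycin. Asb2 and Ucp3 went the other way. Asb2 stood at 50.8, 42.6 and 46.4 CPM with piericidin and 36.4, 34.5 and 35.9 CPM with antimycin, rises of 1.61 and 1.22, against its fall with oligomycin. Ucp3 rose by 1.02 and 1.14 with the respiratory inhibitors. Art1 (0.09 and 0.064) passed with neither, and Fst fell with antimycin (-0.61) but did not pass with piericidin (-0.17). Myog, Asb2, Ucp3, Art1 and Fst all differed in both direct contrasts. ATP synthase genes were lower with oligomycin than with piericidin at 13 of 18 and than with antimycin at 3 of 18, and the 13 mitochondrially encoded genes at 10 and at 3, with 1 and 0 higher.

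**Figure D4:**
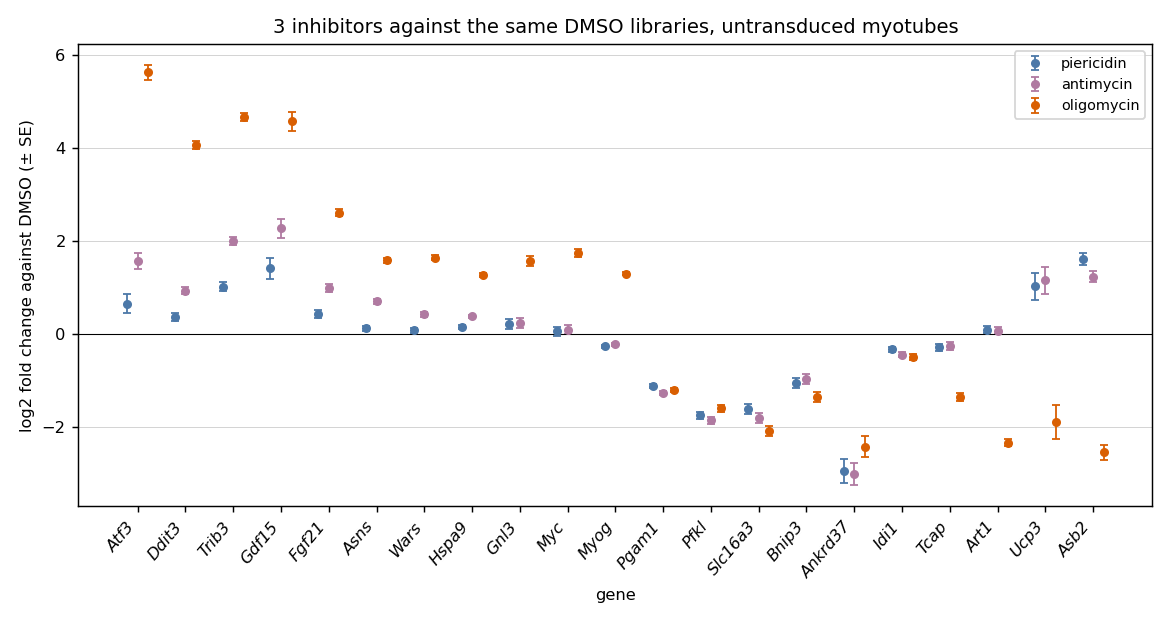
Log2 fold change against the same 3 DMSO libraries (points, bars show the SE of the fit) for piericidin, antimycin and oligomycin at 21 genes, 3 libraries each. ISR, ribosome and Myog values with oligomycin lie far above those of the other inhibitors, glycolysis and HIF genes lie below 0 with each drug, and Ucp3 and Asb2 have opposite signs.

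GFP-transduced myotubes share no library with the comparison and repeat the treatment, with 2 libraries a group. There 1713 genes rose (13.8%) and 1532 fell (12.4%) of 12397 tested. Of the 702 genes that changed at least 2-fold in untransduced myotubes, 676 were tested there, 599 of these had the same sign (88.6%), and 424 were also called in the same direction (62.7%). Of the rises 266 of 325 (81.8%) and of the falls 158 of 351 (45.0%) were called in the same direction. Among the falls, 3 of 129 component genes and 155 of the 222 others were. In these 4 libraries the component level overlapped between the groups, at 4.13 and 5.09 log2 CPM with DMSO and 4.88 and 4.91 with oligomycin, and the median change of the component genes was -0.63 in untransduced and 0.16 in GFP-transduced myotubes. Across the 676 genes, which are not independent replicates, Pearson's r of the log2 fold changes was 0.856, and 0.895 over the 544 outside the component. The 676 were chosen for a large change in 1 of the fits. Over all 12148 genes tested in both, r was 0.633 and 73.8% had the same sign. The sign was opposite in untransduced myotubes at 118 genes called in GFP-transduced ones, of which 5 were called in both. Among the 676 genes Nudt8 alone was called in both fits with opposite signs, at 1.42 and -2.03.

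Some of the lists described above moved in the same direction in these libraries. ISR factors rose at 6 of 7 tested in GFP-transduced myotubes, feedback genes at 9 of 10, cytosolic tRNA synthetases at 16 of 20 and ribosome assembly genes at 16 of 18, and none of these fell. Atf4 rose by 2.04, Ddit3 by 4.44 and Gdf15 by 4.88. Myog rose by 0.95, and glycolysis genes fell at 14 of 23 and HIF targets at 9 of 15. Asb2 (-3.49), Fst (-2.66) and Art1 (-3.09) fell. Of the mitochondrially encoded genes 1 of 13 fell and 2 rose, against 9 and 2 in untransduced myotubes. ATP synthase genes fell at 10 of 18, against 9, and 1 rose.

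**Figure D5:**
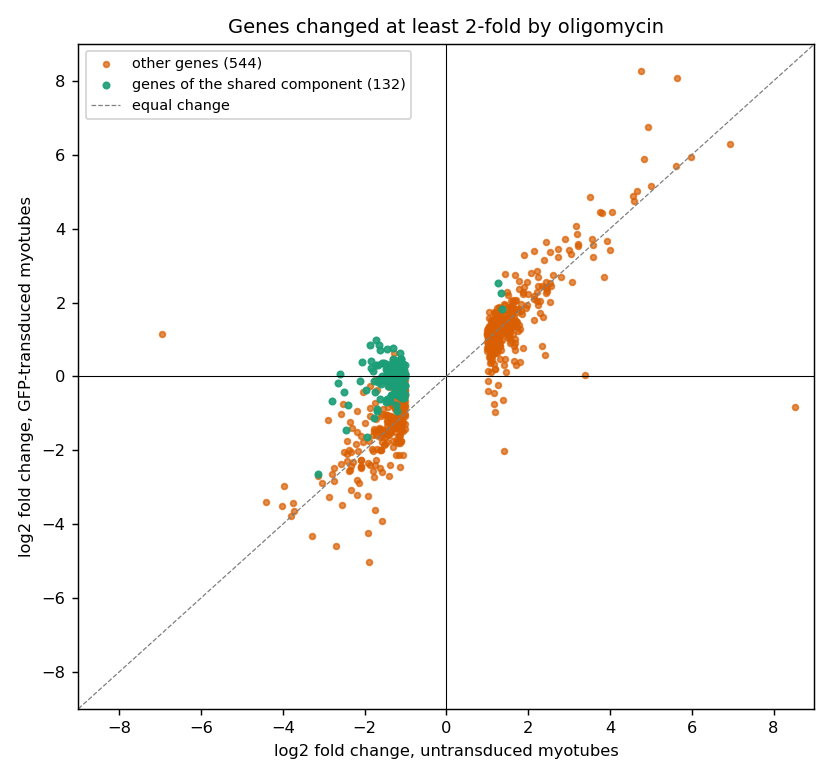
Log2 fold change of genes that oligomycin changed at least 2-fold in untransduced myotubes (x axis) against their change in GFP-transduced myotubes (y axis), 1 point a gene. Green points are the 132 tested genes of the shared component, which lie around 0 on the y axis, and orange points the other 544, most of which lie near the dashed line of equal change.

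In luciferase myoblasts, which still divide, oligomycin raised 2696 genes (21.4%) and lowered 3340 (26.5%) of 12592. The response differed between myotubes and myoblasts, tested as an interaction, at 3520 genes (28%). The myoblasts also differed in the luciferase gene, doxycycline and serum, which cannot be told apart from cell state here. If the plate codes are read as wells, 3 of 3 myoblast DMSO and 1 of 3 myoblast oligomycin libraries lay at outer places. In the myotubes these were 0 of 3 and 2 of 3. The component differed between these groups also, at 3.53 to 4.17 log2 CPM in myoblast DMSO libraries and 4.01 to 4.61 with oligomycin, and with it as a covariate the count was 2286. Of the 20 genes in the lists of ISR factors, feedback genes and mitokines, 2 responded more in myotubes, 10 more in myoblasts and 8 did not pass. Nupr1 (-0.89, SE 0.087), Chac1 (-0.89, SE 0.14) and Ppp1r15a (-0.56, SE 0.10) were among those that rose more in myoblasts. Among those that did not pass, the interaction of Atf4 was 0.067 (SE 0.05), of Ddit3 0.019 (SE 0.089), of Trib3 -0.21 (SE 0.13) and of Sesn2 -0.097 (SE 0.15). Gdf15 rose by 4.57 in myotubes and 3.31 in myoblasts, and Fgf21 by 2.61 and 5.98, the latter from a level near 0 in myoblasts (0.181, 0.0678 and 0.0897 CPM with DMSO and 6.57, 6.44 and 10.0 CPM with oligomycin). Ddit4, which did not pass in myotubes, rose by 1.88 in myoblasts.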

How the data were processed

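RNA of C2C12 cells was sequenced by the authors as 96 polyA-selected, non-stranded Smart-seq2 libraries. Per the labels and the study's methods, reads were demultiplexed with bcl2fastq 2.20.0.422 and quantified with kallisto 0.44 with bias correction against mouse transcripts and transgenes (labels: mm10), and transcripts were summed to genes. The deposited table holds the authors' estimated counts as whole numbers, with no normalization, for 54150 features. All 96 columns matched a sample by name, and totals were 6458295 to 15366745.

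From these counts, edgeR 4.0.16 (R 4.3.3) fitted the 27 untransduced myotube libraries of 9 conditions together (TMM, robust quasi-likelihood F test, Benjamini-Hochberg over all genes tested), keeping genes that reached 16 counts in all replicates of some condition. A gene is called at an adjusted p under 0.05, and the SE is the log2 fold change over the square root of F. The GFP and myoblast comparisons had fits of their own. On simulated counts with 200 changed genes (12491 genes), the comparison with DMSO recovered 83 of 100 2-fold and 56 of 100 1.5-fold changes with 3 false calls, that in GFP myotubes (12397 genes) 65 and 39 with 9, and the interaction (12592 genes) 56 and 34 with 1. Counting error is only part of the spread, which the replicates measure. The 200 changed genes were far fewer than the 4124 called between oligomycin and DMSO in untransduced myotubes. The share of false calls in the libraries themselves, which hold the shared component, was not tested.

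Within a list the text names mainly the called genes with the largest change and a mean of at least 10 counts and the defining genes. Outside the lists it names the 15 largest rises and 15 largest falls with a mean of at least 50 counts, groups that do not overlap and a symbol that is not a predicted gene. For the interaction it names the 3 lists of ISR factors, feedback genes and mitokines and the 3 largest in each direction among genes with a mean of at least 50 counts over the libraries compared. Nudt8 and the component genes were chosen after their values were seen, and so were the stretches of promoter shown. The members, lists and tests were chosen with earlier results of these data known. The alternatives were DESeq2 1.42.0 size factors, its Wald test, no count filter, the groups compared alone, a replicate block, each library left out, and plate position. The component covariate was added after seeing the data. Some genes that the naming rule selects are not reported here.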

Additional observations from a re-analysis of the deposited data

Results flagged for a closer look

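The following results differed between untransduced myotubes and luciferase myoblasts. The test was of the difference itself, the edgeR interaction of oligomycin with myotubes against myoblasts. Cell state cannot be told apart there from the luciferase gene, doxycycline and serum. Values are log2 differences in response, myotubes minus myoblasts. The interaction was called at 3520 genes. Vldlr (-2.97), a lipoprotein receptor that ATF4 is known to raise, Fgf21 (-3.37) and Ddit4 (-2.33) responded more in myoblasts by the widest margins. All were low in myoblasts with DMSO, at means of 1.69, 0.113 and 2.16 CPM. With oligomycin, means in myotubes and myoblasts were 49.0 and 37.2 CPM for Vldlr, 171 and 7.68 for Fgf21 and 4.20 and 8.17 for Ddit4. Nupr1 (-0.89), Chac1 (-0.89), Atf5 (-0.86), Herpud1 (-0.75), Cebpg (-0.69), Eif4ebp1 (-0.56) and Ppp1r15a (-0.56) did so by less. Gdf15 (1.26) and Tnfrsf10b (0.42) responded more in myotubes. With 1 library left out, the highest adjusted p of Atf5 was 0.106 and that of Tnfrsf10b 0.107, and with the component as a covariate they were 0.536 and 0.346, so that neither held (edgeR). With plate position as a covariate, Cebpg (0.0953), Atf5 (0.293) and Tnfrsf10b (0.364) did not pass (edgeR adjusted p in parentheses).

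Among genes with a mean of at least 50 counts over the libraries compared, the widest interactions were those of Klhl40 (5.32), Rad54b (5.10) and Mylk4 (4.78) on one side and Trp63 (-6.84), Smim5 (-4.71) and Rnf187 (-4.65) on the other. Klhl40, Mylk4, Trp63 and Smim5 are at or near 0 in myoblasts: Klhl40 and Mylk4 are at 0 in all 3 myoblast oligomycin libraries and Trp63 in all 3 myoblast DMSO libraries, so their fitted values depend on the prior count and bound nothing. The change of Trp63 in myotubes was -2.08 and that of Smim5 -3.80. Rad54b was measured in both states, from 15.6, 17.4 and 12.5 CPM to 6.99, 8.92 and 5.07 CPM in myoblasts, a fall of 1.10 where myotubes rose by 3.99. Rnf187 is a component gene, and with the component as a covariate its interaction was -0.62 (edgeR adjusted p = 0.465), and its adjusted p was 0.306 with plate position (edgeR). With 1 library left out the highest adjusted p was 0.11 for Trp63, 0.138 for Smim5 and 0.057 for Rnf187 (edgeR).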

How the results depend on the processing

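The counts of called genes moved most when the libraries at outer places of the plate were left out, which leaves 1 oligomycin library, assumed to vary like the other groups. They fell to 2470 against DMSO, 1968 against piericidin and 1316 against antimycin. The interaction count was 2233 with plate position as a covariate and 2286 with the component. The promoter share of genes that rose at least 2-fold was 6.61% with the letters TGATGCAA. Leaving out 1 library at a time gave 3436 to 3861 called genes against DMSO, 2792 to 3243 against piericidin, 2213 to 2402 against antimycin, 2351 to 2570 in GFP myotubes, 2999 to 3494 for the interaction and 295 to 314 list members. Foxo3 and Vars, both component genes, changed sign with the component as a covariate, to 0.34 and 1.00. The other settings, DESeq2 size factors, its Wald test (4021 genes against DMSO), no count filter (3512) and the groups compared alone, left the counts over all genes and over all lists within 1.5 times. With no count filter, 3 genes of pyruvate dehydrogenase and the TCA cycle and no chemokine were called. The cause was not tested where a value moved.

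With the replicate number as a block, 4043 genes were called against DMSO, 3373 against piericidin, 2614 against antimycin, 3132 in GFP myotubes and 3589 for the interaction. The numbers do not pair the libraries: deviations of oligomycin and DMSO libraries with the same number had correlations of -0.038, -0.032 and 0.0077.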
